A study of Arabidopsis thaliana with 36 samples.

Results

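The nuclear photosynthesis genes described here are 49 genes of the nuclear genome of Arabidopsis thaliana that encode parts of the thylakoid electron transport chain or of the enzyme Rubisco. They were listed by locus identifier, with earlier results of these data known. All 49 were found among the 32678 genes of the count table and passed the filter on low counts. They comprise 14 LHCB and 4 LHCA genes for antenna proteins, 12 PSA and 9 PSB genes for subunits of photosystem I and photosystem II, 5 genes for electron carriers (PETE1, PETE2, PETC, FNR1 and FNR2), and 4 RBCS genes with RCA for Rubisco and its activase. RNA of whole seedlings, roots and shoots together, was sequenced at 12 days of age in the double mutant wrky18 wrky40, the single mutants wrky40 and wrky18, and Col-0 wild type (WT). Each genotype was taken untreated (0 h) and at 1 h and 2 h after its liquid medium had been exchanged for medium with 1 µM flg22, with 3 biological replicates in each of the 12 groups. The untreated seedlings had no exchange of medium, so in every comparison with 0 h the effects of flg22, of the exchange and of the hour of sampling cannot be told apart.

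Antenna proteins bind chlorophyll and pass light energy to the photosystems, photosystem II takes electrons from water, plastocyanin carries them to photosystem I, and ferredoxin-NADP reductase hands them to NADP. Rubisco fixes carbon dioxide in the Calvin-Benson cycle, with its small subunit encoded in the nucleus and its large subunit in the chloroplast. In leaves these nuclear genes are among the most highly transcribed of all, respond to light and the clock, and are known to decline when plants sense microbes. The peptide flg22 is a fragment of bacterial flagellin that plants perceive through the receptor kinase FLS2, and WRKY18 and WRKY40 are transcription factors that bind the W-box sequence and are induced by that signal.

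Levels are CPM, a gene's counts on a library scale set equal by the TMM method, changes are log2 fold changes ± SE of an edgeR quasi-likelihood model over all 36 libraries, and a gene was called when its p adjusted over the 21356 genes tested was below 0.05. Total counts ran from 17287229 to 38709715 per library. The p-values rest on a spread per gene estimated from the 3 libraries in each of the 12 groups together, not only in the groups compared. At 2 h the WRKY40 transcript stood at 36.3 to 45.8 CPM in wrky18 wrky40 and 31.6 to 40.2 CPM in wrky40, against 331 to 367 CPM in WT, and at 0 h at 0.467 to 1.05 and 0.485 to 0.895 CPM, against 3.2 to 10.3 CPM in WT. The WRKY18 transcript stood at 28.3 to 30.5 CPM in wrky18 wrky40 and 14.8 to 17.7 CPM in wrky18 at 2 h, against 47.1 to 57.0 CPM in WT, and at 99.8 to 121 CPM in wrky40. Both transcripts were therefore reduced but still counted in their mutants, and the next gene to WRKY18, AT4G31805, held 0 to 1 counts per group in wrky18 wrky40 and wrky18, against 250 to 519 in wrky40 and WT, so in those lines the effects of the 2 genes cannot be told apart.

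At 2 h of flg22 the 49 genes together held a smaller part of the transcriptome in each genotype. In WT they took 11.0% to 11.9% of all counts at 0 h, 8.24% to 9.22% at 1 h and 6.45% to 7.18% at 2 h. The ranges of these shares at the 3 times did not overlap in WT. On the TMM scale the 49 genes summed to 83847 to 101210 CPM at 1 h, against 94627 to 104923 CPM at 0 h, and these ranges overlapped. At 2 h the sum was 67233 to 76737 CPM, below both. RBCS1A, the most abundant Rubisco small subunit gene, alone held 0.968% to 1.08% of all counts at 2 h, against 1.66% to 1.82% at 0 h. Per kb of coding sequence RBCS1A was also the highest of the 49 genes in untreated WT seedlings, at 27689 CPM, ahead of LHCB1.3 at 9747 CPM, and LHCB4.3 was the lowest at 54.7 CPM.

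**Figure D1:**
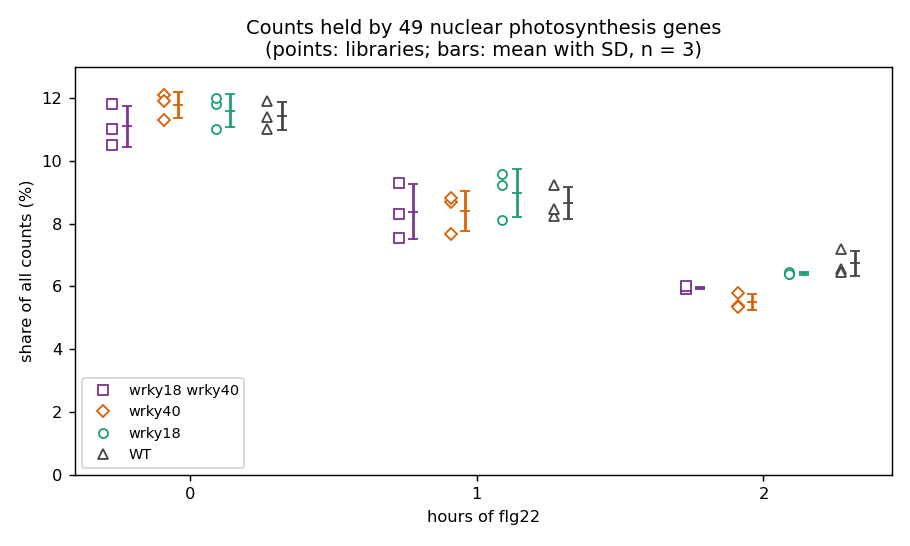
Share of all counts (%, vertical axis) held by the 49 nuclear photosynthesis genes in each library, by hours of flg22 (horizontal axis) and genotype. Open symbols are libraries and bars are the mean with SD of 3 libraries. In WT the share was 6.45% to 7.18% at 2 h, against 11.0% to 11.9% at 0 h. At 2 h the 3 wrky40 libraries (5.33% to 5.79%) and the 3 wrky18 wrky40 libraries (5.93% to 6.0%) lay below the 3 WT libraries. The wrky18 libraries stood at 6.38% to 6.45% at 2 h.

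In WT, 35 of the 49 genes were lower at 2 h than at 0 h and none was higher, where 35.1% of all genes tested were lower. The median change of the 49 genes was -0.44, with a range of -2.29 to 0.08, beside a median of -0.01 over all genes tested. In 35 genes, PSAN among them but not LHCB4.1, the 3 libraries at 2 h all lay below the 3 at 0 h. The share of all genes tested with such separate libraries was not computed. No gene rose at an unadjusted p below 0.05, and DESeq2 called 37 lower and 0 higher. With libraries scaled by their totals in place of TMM, 48 genes were lower and the medians were -0.72 for the 49 genes and -0.28 for all genes tested, so the changes are given relative to the TMM scale. On that scale 48.9% of all called genes were lower, against 63.5% by totals. Of the 35 calls, 28 held without each of the 6 libraries in turn. The fall was uneven: all 14 LHCB genes passed the test but only 3 of 12 PSA genes.

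**Figure D2:**
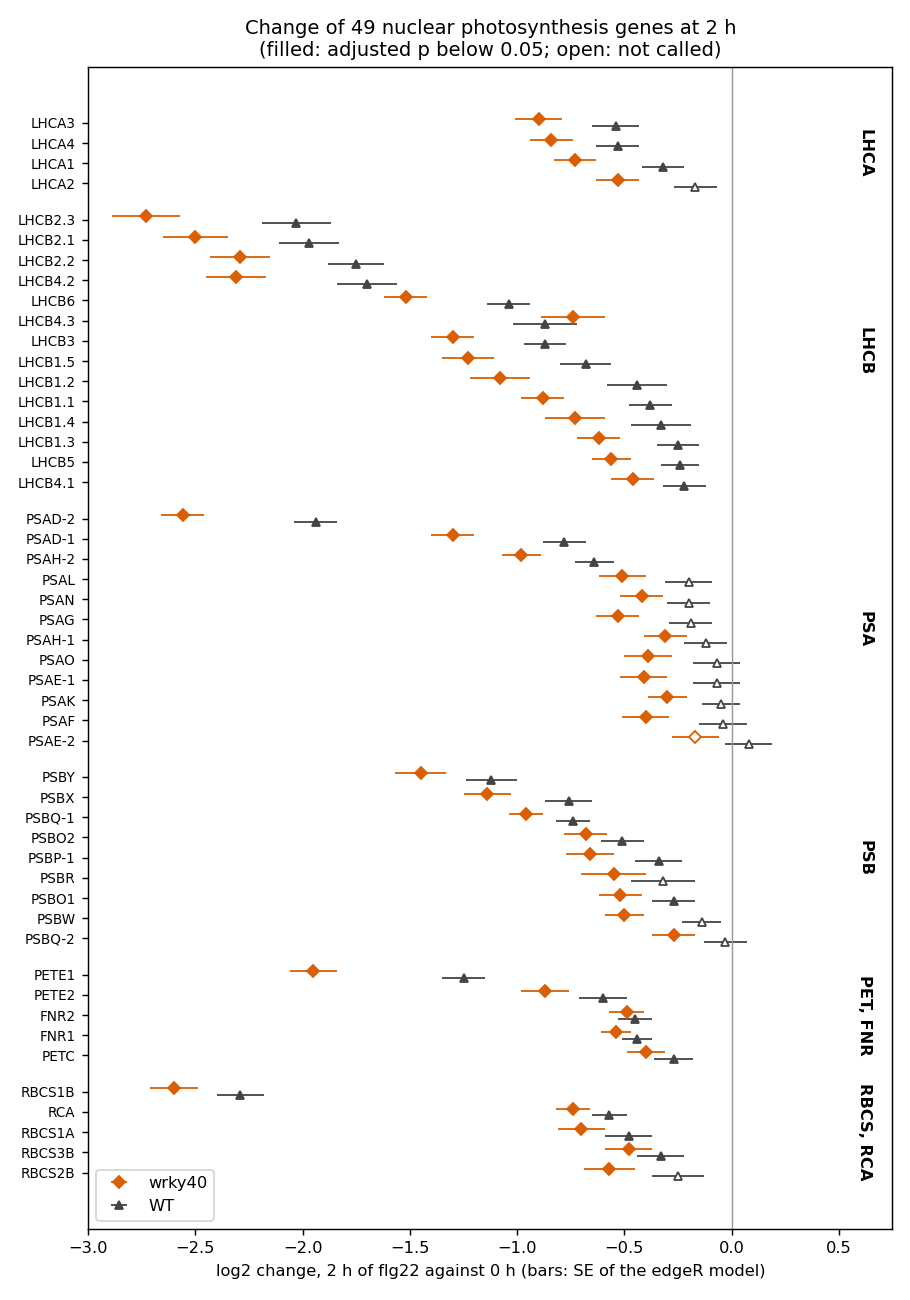
Log2 change at 2 h against 0 h (horizontal axis) of each of the 49 genes (rows, grouped by role), in wrky40 (diamonds) and WT (triangles). Bars are the SE of the model, filled symbols had an adjusted p below 0.05 and open ones did not. In WT the values run from -2.29 for RBCS1B to 0.08 for PSAE-2.

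The antenna of photosystem II had the largest falls as a group, with a median change of -0.77 over the 14 LHCB genes in WT at 2 h. LHCB2.3 (AT3G27690), an antenna protein of the mobile trimers that move between photosystems, stood at 113, 102 and 102 CPM at 2 h, against 481, 398 and 411 CPM at 0 h. Its 2 h libraries lay far below every 0 h library, a change of -2.03 ± 0.16 (edgeR adjusted p = 5.29e-13). LHCB2.3 overlaps a gene on the other strand by 595 bp, one of 17 of the 49 genes that overlap another annotated gene, by up to 788 bp in PSAH-1. The strand setting of the counting is not given in the sources used here, so reads in those overlaps cannot be assigned with certainty. The other LHCB2 genes, LHCB2.1 (AT2G05100) and LHCB2.2 (AT2G05070), fell about as far. LHCB2.1 had 504, 551 and 444 CPM at 2 h, against 2036, 2075 and 1749 CPM at 0 h, with a change of -1.97 ± 0.14 (edgeR adjusted p = 7.35e-14). LHCB2.2 had 451, 441 and 396 CPM at 2 h, against 1498, 1508 and 1324 CPM at 0 h, with a change of -1.75 ± 0.13 (edgeR adjusted p = 2.6e-13). Neither gene had a 2 h library near its 0 h libraries.

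The LHCB1 genes, which encode the most abundant trimer protein, fell less than the LHCB2 genes, with changes of -0.25 to -0.68 over the 5 copies. LHCB1.1 (AT1G29920) had 3867, 3539 and 3459 CPM at 2 h, against 4743, 4819 and 4538 CPM at 0 h, a change of -0.38 ± 0.10 (edgeR adjusted p = 0.0016). The minor antenna genes that link the trimers to the core ranged widely, with LHCB6 at -1.04 and LHCB5 at -0.24. LHCB4.1 (AT5G01530) changed least, with 1825, 1572 and 1498 CPM at 2 h, against 1948, 1973 and 1797 CPM at 0 h. Its groups overlapped, since the highest 2 h library stood above the lowest 0 h library, and its call (-0.22 ± 0.10, edgeR adjusted p = 0.0383) was lost without the filter on low counts and in 4 of the 6 fits that left out a library. Its sister gene LHCB4.2 (AT3G08940) had 416, 398 and 368 CPM at 2 h, against 1278, 1351 and 1218 CPM at 0 h, and these groups were far apart (-1.70 ± 0.14, edgeR adjusted p = 7.71e-13).

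Among the 4 LHCA genes of the photosystem I antenna, 3 fell in WT at 2 h. LHCA3 (AT1G61520) had 1523, 1437 and 1316 CPM at 2 h, against 2090, 2209 and 1932 CPM at 0 h, a change of -0.54 ± 0.11 (edgeR adjusted p = 4.51e-05). LHCA4 (AT3G47470) had 2110, 2027 and 2085 CPM at 2 h, against 3075, 3079 and 2822 CPM at 0 h, a change of -0.53 ± 0.10 (edgeR adjusted p = 1.13e-05). In both genes the groups were apart. LHCA2 (AT3G61470) had 1676, 1343 and 1401 CPM at 2 h, against 1658, 1719 and 1607 CPM at 0 h, and its groups overlapped (-0.17 ± 0.10, edgeR adjusted p = 0.125).

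Photosystem I subunits changed least, with 3 of 12 PSA genes lower in WT at 2 h and a median of -0.16. All 3 belong to gene pairs, PSAD-2, PSAD-1 and PSAH-2 (-0.64). PSAD is the stromal subunit that docks ferredoxin. PSAD-2 (AT1G03130) had 163, 172 and 146 CPM at 2 h, against 568, 662 and 614 CPM at 0 h, a change of -1.94 ± 0.10 (edgeR adjusted p = 1.42e-17). PSAD-1 (AT4G02770) had 617, 565 and 543 CPM at 2 h, against 982, 1094 and 884 CPM at 0 h, a change of -0.78 ± 0.10 (edgeR adjusted p = 3.13e-08). The 2 h libraries of both copies lay below their 0 h libraries, by a wider margin in PSAD-2. The other 9 genes, which include PSAF for plastocyanin docking and PSAL, PSAO and PSAK at the edge of the complex, had values of -0.20 to 0.08 and were not called. PSAE-2 (AT2G20260), the highest of them, had 236, 185 and 205 CPM at 2 h, against 199, 206 and 188 CPM at 0 h, with overlapping groups (0.08 ± 0.11, edgeR adjusted p = 0.543). With the replicate number as a block, PSAG and PSAN were called lower too (edgeR adjusted p = 0.0448 and 0.0497).

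For photosystem II, 6 of 9 PSB genes were lower in WT at 2 h, with a median of -0.34. PSBY (AT1G67740), a small membrane protein of the complex, had 411, 445 and 379 CPM at 2 h, against 842, 962 and 871 CPM at 0 h, a change of -1.12 ± 0.12 (edgeR adjusted p = 1.16e-09). PSBX (AT2G06520), another small membrane subunit, had 673, 634 and 551 CPM at 2 h, against 1031, 1162 and 963 CPM at 0 h, a change of -0.76 ± 0.11 (edgeR adjusted p = 4.56e-07). In these 2 genes every 2 h library was lower than every 0 h library. The proteins of the oxygen-evolving complex split: PSBQ-1 (-0.74), PSBO2 (-0.51), PSBP-1 (-0.34) and PSBO1 (-0.27) fell, whereas PSBQ-2 (AT4G05180) had 699, 593 and 623 CPM at 2 h, against 664, 680 and 614 CPM at 0 h. The PSBQ-2 groups overlapped (-0.03 ± 0.10, edgeR adjusted p = 0.78). PSBR (-0.32) was called only with the replicate block (edgeR adjusted p = 0.0505 without it and 0.00273 with it), and PSBW stood at -0.14.

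All 5 electron carrier genes fell in WT at 2 h. Plastocyanin has a minor gene, PETE1 (AT1G76100), which had 49.5, 44.9 and 40.9 CPM at 2 h, against 101, 114 and 107 CPM at 0 h, a change of -1.25 ± 0.10 (edgeR adjusted p = 1.8e-12). Its major gene, PETE2 (AT1G20340), had 908, 878 and 754 CPM at 2 h, against 1280, 1402 and 1176 CPM at 0 h, a change of -0.60 ± 0.11 (edgeR adjusted p = 2.18e-05). Both copies were lower in every 2 h library. PETC (AT4G03280), the Rieske iron-sulfur protein of the cytochrome b6f complex, changed least, with 742, 727 and 694 CPM at 2 h, against 863, 896 and 850 CPM at 0 h. Its groups were nonetheless apart (-0.27 ± 0.09, edgeR adjusted p = 0.00615). FNR1 and FNR2, the ferredoxin-NADP reductases, fell alike, by 0.44 and 0.45 on the log2 scale.

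Of the Rubisco genes, 4 of 5 fell in WT at 2 h, and one of them, RBCS1B, had the largest fall of the 49. RBCS1B (AT5G38430) had 305, 399 and 296 CPM at 2 h, against 1534, 1767 and 1586 CPM at 0 h, a change of -2.29 ± 0.11 (edgeR adjusted p = 3.7e-18). RCA (AT2G39730), the activase that frees Rubisco of inhibitory sugar phosphates, had 5326, 5255 and 5112 CPM at 2 h, against 7475, 8149 and 7727 CPM at 0 h, a change of -0.57 ± 0.08 (edgeR adjusted p = 9.44e-08). The groups of both genes were apart. RBCS2B (AT5G38420) had 1878, 1285 and 1422 CPM at 2 h, against 1785, 1829 and 1839 CPM at 0 h. Here 1 of the 3 libraries at 2 h lay above all those at 0 h, and the change of -0.25 ± 0.12 was not called (edgeR adjusted p = 0.0535, or 0.033 with the replicate block). RBCS1A (AT1G67090) had 11537, 10695 and 10095 CPM at 2 h, against 14657, 16095 and 14354 CPM at 0 h, a change of -0.48 ± 0.11 (edgeR adjusted p = 3.20e-04). RBCS3B (-0.33) fell as well.

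Sister copies that encode nearly the same protein thus differed in response, as the pairs RBCS1B and RBCS2B, PSAD-2 and PSAD-1, and LHCB4.2 and LHCB4.1 show. These pairs were picked for that difference after the values were seen, so the shares that follow are a description with no test. Of the counts of RBCS1B and RBCS2B together, RBCS1B held 14.0% to 23.7% in WT at 2 h, against 46.2% to 49.1% at 0 h. PSAD-2 held 20.9% to 23.3% of its pair at 2 h, against 36.7% to 41.0% at 0 h. LHCB4.2 held 18.6% to 20.2% of the counts of LHCB4.2 and LHCB4.1 at 2 h, against 39.6% to 40.6% at 0 h. In each of these pairs the more responsive copy had already lost share at 1 h, where RBCS1B was at 32.7% to 34.4%, PSAD-2 at 28.8% to 30.6% and LHCB4.2 at 30.7% to 32.5%. PETE1 held 4.87% to 5.17% of the plastocyanin counts at 2 h, against 7.31% to 8.36% at 0 h. PSBQ-1 went below its sister, with 44.5% to 49.5% of the pair at 2 h, against 58.3% to 59.2% at 0 h, and PSAH-2 held 51.6% to 55.0%, against 61.9% to 62.7% at 0 h. PSBO2 held at most 20.5% of its pair at 2 h, against at least 21.7% at 0 h, and PSAE-2 held at least 19.2% of its pair at 2 h, against at most 19.0% at 0 h. FNR2 held 39.3% to 39.8% at 2 h, against 39.2% to 40.3% at 0 h, and was the only one of these pairs whose ranges overlapped.

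**Figure D3:**
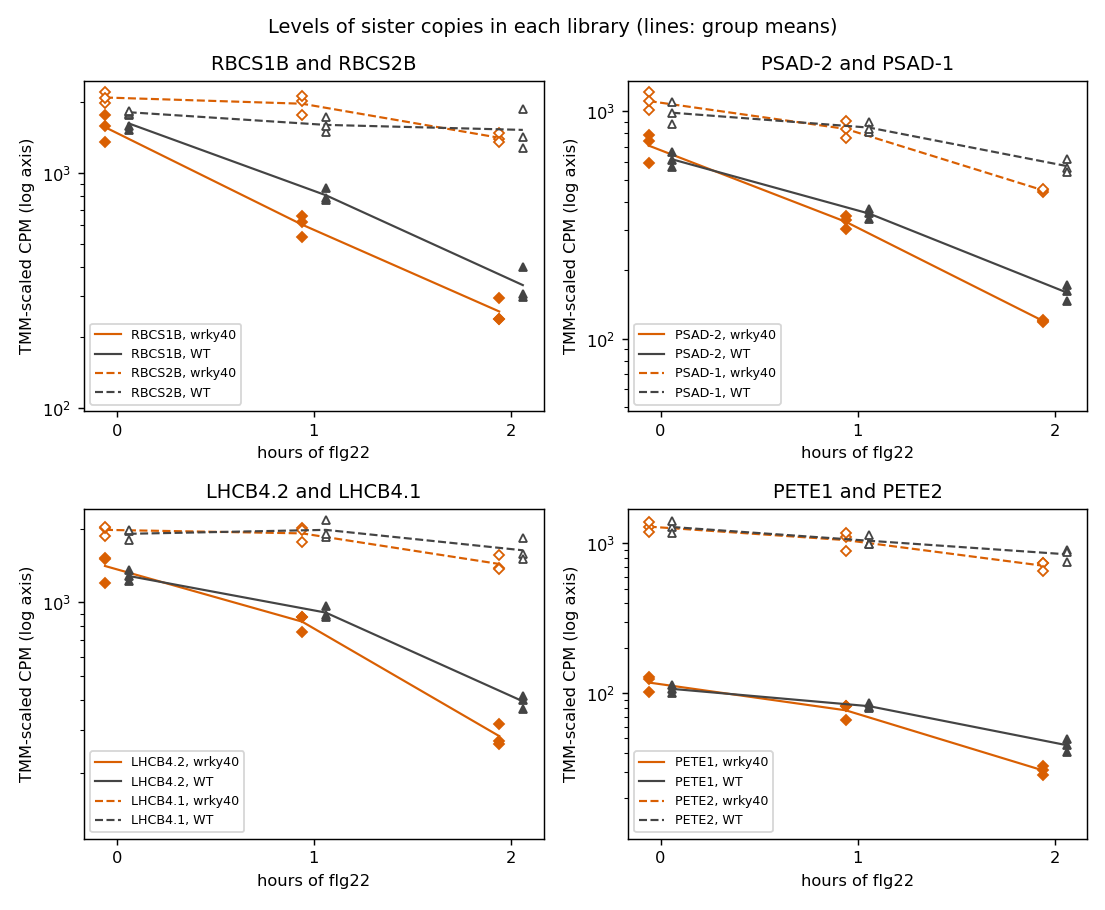
TMM-scaled CPM (log axis) by hours of flg22 for 4 pairs of sister copies in wrky40 (diamonds) and WT (triangles). Points are libraries, lines join group means, and the more responsive copy of each pair has filled symbols and solid lines. In WT, RBCS1B stood at 296 to 399 CPM at 2 h, against 1534 to 1767 CPM at 0 h, while RBCS2B stood at 1285 to 1878 CPM at 2 h, against 1785 to 1839 CPM at 0 h.

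The proteins of these copies are close, with 97.8% identity between RBCS1B and RBCS2B, 95.1% between PSAD-2 and PSAD-1 and 89.5% between LHCB4.2 and LHCB4.1, and 76.0% for the plastocyanins. Close copies can share reads. RBCS1B had 51.3% and RBCS2B 38.0% of its 50-base coding words in common with another of the 49 genes, so their separate values are uncertain, whereas PSAD-2, PSAD-1, LHCB4.2 and LHCB4.1 had none in common with another of them. To show what lies in front of each copy, the 250 bases before the annotated gene start are given for the 3 pairs, read 5′ to 3′ on the strand of the gene from RefSeq TAIR10.1. RBCS1B is chr5:15385321-15385570 and RBCS2B is chr5:15382072-15382321, both on the minus strand. PSAD-2 is chr1:754263-754512 and PSAD-1 is chr4:1230165-1230414, also both minus, and LHCB4.2 is chr3:2717307-2717556 and LHCB4.1 is chr5:208616-208865, both plus. Capitals mark exact matches, on either strand, to the W-box core TTGAC, the G-box CACGTG, the I-box core GATAAG and the sequence CCAATC, a motif of GLK target genes.
RBCS1B: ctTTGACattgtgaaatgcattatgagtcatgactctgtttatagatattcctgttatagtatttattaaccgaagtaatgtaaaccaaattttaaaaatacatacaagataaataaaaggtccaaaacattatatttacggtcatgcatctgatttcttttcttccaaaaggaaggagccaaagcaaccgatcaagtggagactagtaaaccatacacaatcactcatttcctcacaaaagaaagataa
RBCS2B: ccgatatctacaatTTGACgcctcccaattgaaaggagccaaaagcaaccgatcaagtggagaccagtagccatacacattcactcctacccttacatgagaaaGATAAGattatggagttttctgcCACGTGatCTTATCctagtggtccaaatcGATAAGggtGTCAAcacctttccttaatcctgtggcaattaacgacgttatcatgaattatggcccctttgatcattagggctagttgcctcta
PSAD-2: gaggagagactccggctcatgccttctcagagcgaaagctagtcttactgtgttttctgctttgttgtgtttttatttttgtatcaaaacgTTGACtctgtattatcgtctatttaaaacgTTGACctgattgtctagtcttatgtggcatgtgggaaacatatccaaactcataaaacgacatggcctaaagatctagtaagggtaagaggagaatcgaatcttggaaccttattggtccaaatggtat
PSAD-1: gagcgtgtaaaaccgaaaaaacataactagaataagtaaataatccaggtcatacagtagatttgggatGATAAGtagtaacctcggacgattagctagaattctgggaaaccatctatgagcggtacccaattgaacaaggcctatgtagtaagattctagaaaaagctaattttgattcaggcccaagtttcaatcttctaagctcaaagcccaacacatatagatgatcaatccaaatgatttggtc
LHCB4.2: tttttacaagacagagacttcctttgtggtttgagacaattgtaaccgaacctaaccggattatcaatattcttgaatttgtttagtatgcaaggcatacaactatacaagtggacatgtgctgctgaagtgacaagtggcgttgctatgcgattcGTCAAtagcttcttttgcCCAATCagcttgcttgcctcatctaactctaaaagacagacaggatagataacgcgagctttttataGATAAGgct
LHCB4.1: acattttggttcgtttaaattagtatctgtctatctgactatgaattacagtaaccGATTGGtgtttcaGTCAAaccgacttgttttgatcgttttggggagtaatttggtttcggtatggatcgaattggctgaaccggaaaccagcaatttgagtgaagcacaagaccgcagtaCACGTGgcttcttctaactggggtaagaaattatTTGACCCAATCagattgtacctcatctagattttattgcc
The RBCS1B window held 1 W-box core and none of the other 3 motifs, whereas that of RBCS2B held 2 W-box cores, 1 G-box and 3 I-box cores. The PSAD-2 window held 2 W-box cores and that of PSAD-1 held 1 I-box core. The LHCB4.2 window held 1 W-box core, 1 I-box core and 1 CCAATC, and that of LHCB4.1 held 2 W-box cores, 1 G-box and 2 CCAATC, of which one stands end to end with a W-box core. The annotated start lies 165 bp from the start codon in RBCS1B and 93 bp in RBCS2B, so the windows of a pair do not cover the same part of the promoter. The stretch gcaaccgatcaagtggaga stands towards the end of the RBCS1B window but towards the start of that of RBCS2B. In RBCS2B the G-box and the I-box cores follow this stretch. Most of the matching part of RBCS1B thus lies past its window and was not searched, so the motif counts of this pair are not comparable.

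Over all 49 genes, 18 windows (36.7%) held a W-box core, against 45.6% of the windows of 21219 genes tested. A G-box stood in 9 of the 49 windows, against 7.19% of those of all genes tested. An I-box core stood in 14 (28.6%, against 12.3%) and CCAATC in 14 (28.6%, against 10.5%). These are letter matches in a fixed window, with no measure of binding.

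Fewer of the genes passed the test in WT at 1 h than at 2 h. At 1 h, 14 of the 49 genes were lower than at 0 h and none was higher, with 32% of all genes tested lower, and the median was -0.11 beside -0.05 over all genes. DESeq2 called 11 lower and 0 higher, and no gene rose at an unadjusted p below 0.05. Leaving out WT 0 h replicate 2 gave a count of 9, and leaving out replicate 2 or 3 of WT at 1 h gave 8. Scaling by library totals made it 43, with medians of -0.38 for the 49 genes and -0.32 for all genes, and with 71.5% of all called genes lower in place of 52.6%. The genes called at 1 h included the 3 LHCB2 genes, LHCB4.2 (-0.50), PSAD-2 (-0.79), PSBY (-0.38), PETE1 (-0.39) and RBCS1B. RBCS1B stood at 864, 783 and 772 CPM at 1 h, about midway in its fall (-1.01 ± 0.11, edgeR adjusted p = 1.11e-09), and all 3 of these libraries lay below those at 0 h. No LHCA gene was called. From 1 h to 2 h, 29 genes fell further and none rose (23.9% of all genes tested were lower at 2 h than at 1 h), with a median of -0.32. DESeq2 called 39 lower and 0 higher between those times. The comparisons of 1 h and 2 h share the 0 h libraries.

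Most of the genes fell in every genotype. At 2 h against 0 h, 41 of the 49 were lower in wrky18 wrky40 (36.2% of all genes tested), 48 in wrky40 (36.1%) and 42 in wrky18 (36.5%). The medians were -0.46 in wrky18 wrky40, -0.70 in wrky40 and -0.48 in wrky18, and none was higher in these genotypes by edgeR, by DESeq2 or at an unadjusted p below 0.05. In wrky40 all but PSAE-2 passed the test, among them 11 of 12 PSA genes with a median of -0.42 and all 9 PSB genes with a median of -0.66. All 14 LHCB genes fell in each mutant, with medians of -0.86 in wrky18 wrky40, -1.16 in wrky40 and -0.80 in wrky18. Of the PSA genes, 6 of 12 fell in wrky18 wrky40 and 6 of 12 in wrky18, with medians of -0.20 and -0.24. LHCB2.3 in wrky40 stood at 69.1, 55.9 and 57.4 CPM at 2 h, against 369, 448 and 396 CPM at 0 h, and RBCS1B at 239, 295 and 240 CPM at 2 h, against 1760, 1593 and 1356 CPM at 0 h. Both sets of libraries were far apart. At 1 h against 0 h, 13 genes were lower in wrky18 wrky40 (32.7%), 20 in wrky40 (32.2%) and 12 in wrky18 (32%). No gene rose in wrky40 or wrky18 at 1 h by edgeR or at an unadjusted p below 0.05, and DESeq2 called 0 higher in wrky40 and 1 in wrky18. From 1 h to 2 h, 44 genes fell in wrky18 wrky40 (23%), 48 in wrky40 (24.9%) and 44 in wrky18 (25.8%).

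The only rises called by edgeR over the 12 time comparisons were in the double mutant: PSAK (0.30), PSAO (0.29) and PSBQ-2 (0.27) at 1 h, where 30.1% of all genes tested were higher. PSAO (AT1G08380), a subunit at the edge of photosystem I, had 1425, 1596 and 1218 CPM at 1 h, against 1214, 1072 and 1175 CPM at 0 h and the 3 libraries at 1 h lay above those at 0 h by a narrow margin. PSBQ-2 had 770, 954 and 673 CPM at 1 h, against 675, 621 and 694 CPM at 0 h, with overlapping groups. Under scaling by library totals these 3 genes stood at -0.02, -0.03 and -0.06 and none was higher, while 40 of the 49 genes were lower. The counts were 8 lower and 9 higher when wrky18 wrky40 1 h replicate 3 was left out, 5 higher when its 0 h replicate 3 was, and 1 higher when replicate 2 of either time was. The difference of these changes from WT was not called for any of the 49 genes (0.824% of all genes tested were called there). No gene had an unadjusted p below 0.05 in that difference, and DESeq2 called 0.

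At 2 h the genes stood lower in wrky40 than in WT. All 49 differences were below zero, with a median of -0.24 beside 0.00 over all genes tested, of which 10638 of 21356 were below zero. In 31 genes the 3 wrky40 libraries lay below the 3 WT libraries, a count not made over all genes tested. Of the 49 genes, 11 passed the test and none was higher, where 4.02% of all genes tested were called in either direction. The 11 were LHCB1.1, LHCB1.2, LHCB2.2, LHCB2.3, LHCB4.2, LHCB6, PSAD-1, PSAD-2, PETE1, RBCS1A and RBCS1B, that is 6 of 14 LHCB genes and none of the LHCA or PSB genes. DESeq2 called 13 lower and 0 higher, and 31 had an unadjusted p below 0.05.

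LHCB2.3 had 69.1, 55.9 and 57.4 CPM in wrky40 at 2 h, against 113, 102 and 102 CPM in WT, a difference of -0.79 ± 0.16 (edgeR adjusted p = 0.00191). PETE1 had 30.6, 32.7 and 28.6 CPM in wrky40, against 49.5, 44.9 and 40.9 CPM in WT, a difference of -0.56 ± 0.10 (edgeR adjusted p = 0.00112). Neither gene had overlapping groups, and both kept their call in all 6 fits that left out 1 of these libraries. PSAD-2 had 119, 120 and 121 CPM in wrky40, against 163, 172 and 146 CPM in WT (-0.42 ± 0.10, edgeR adjusted p = 0.0102), and was called in 5 of the 6 fits. LHCB1.1 had 3021, 2353 and 2661 CPM in wrky40, against 3867, 3539 and 3459 CPM in WT (-0.44 ± 0.10, edgeR adjusted p = 0.0103), and was called in 4. LHCB2.2 had 329, 303 and 285 CPM in wrky40, against 451, 441 and 396 CPM in WT (-0.49 ± 0.13, edgeR adjusted p = 0.0248), and was called in 2. The groups of these 3 genes were apart as well. The other 6 called genes differed by -0.49 (LHCB1.2), -0.47 (LHCB4.2), -0.39 (RBCS1A), -0.37 (RBCS1B), -0.36 (LHCB6) and -0.35 (PSAD-1), with edgeR adjusted p of 0.0367 to 0.0475, and each kept its call in at most 2 of the 6 fits, PSAD-1 in 0. The count of 11 moved with single libraries. Leaving out wrky40 replicate 1, 2 or 3 at 2 h gave 9, 4 and 4 calls, and leaving out WT replicate 1, 2 or 3 gave 3, 4 and 6. The summed level of 11 shoot and leaf markers was also lower, at 274 to 305 CPM in wrky40, against 327 to 363 CPM in WT, and its part in these differences was not tested.

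**Figure D4:**
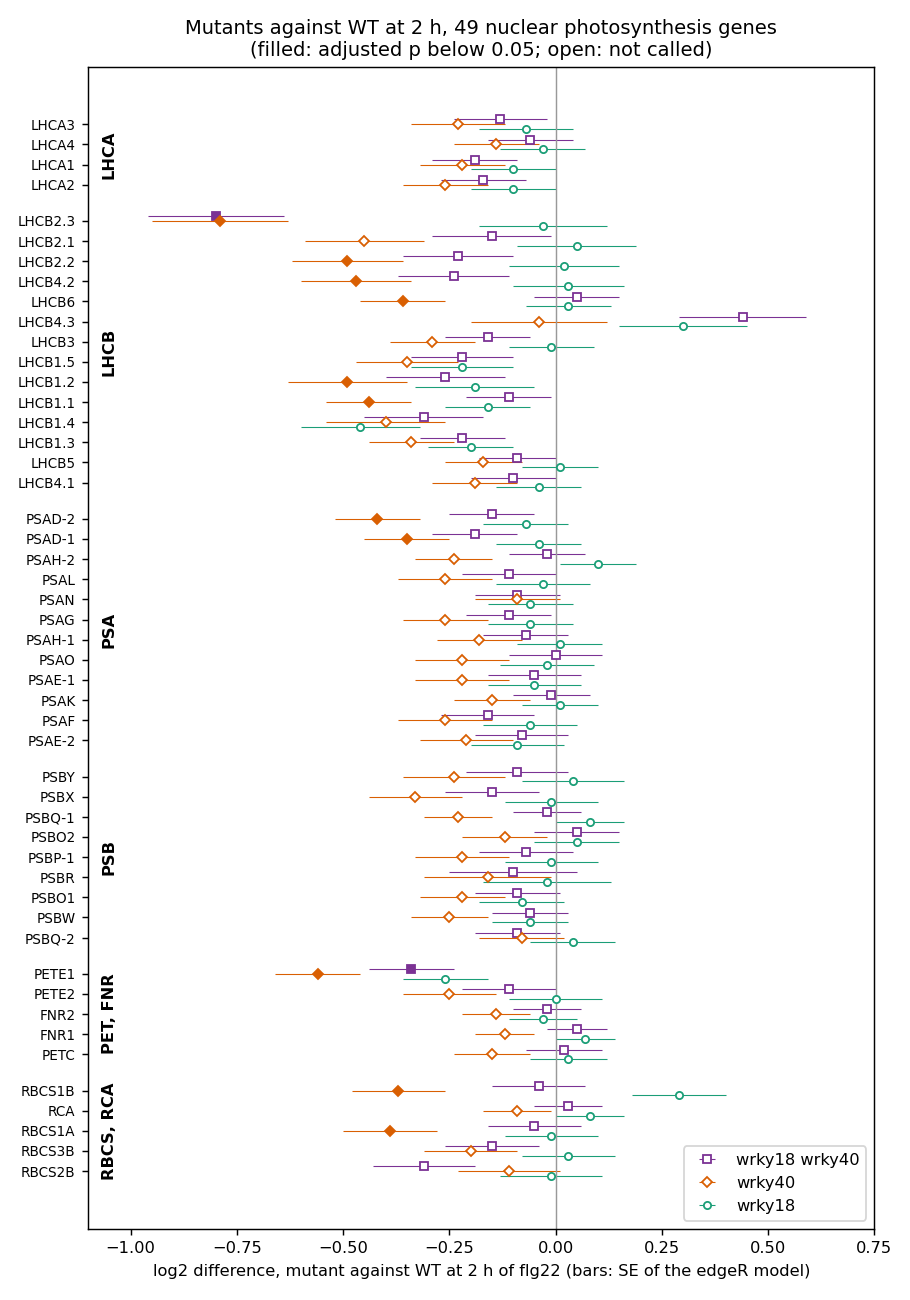
Log2 difference from WT at 2 h of flg22 (horizontal axis) of each of the 49 genes (rows, grouped by role) in wrky18 wrky40 (squares), wrky40 (diamonds) and wrky18 (circles). Bars are the SE of the model, and filled symbols had an adjusted p below 0.05. All 49 diamonds lie left of zero, from -0.79 to -0.04, and 11 of them are filled.

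Before treatment and at 1 h wrky40 differed little from WT. At 0 h none of the 49 genes was called (0.332% of all genes tested were), 1 had an unadjusted p below 0.05, DESeq2 called 0, and the median difference was 0.08. At 1 h RBCS1B alone was called (2.23% of all genes tested were). It had 655, 621 and 535 CPM in wrky40, against 864, 783 and 772 CPM in WT, with the groups apart (-0.42 ± 0.11, edgeR adjusted p = 0.0319), and the call was lost when any of the WT libraries at 1 h, or replicate 2 or 3 of wrky40, was left out. The test of the difference in response, the change from 0 h to 2 h in wrky40 minus that in WT, called PSAD-2 (-0.62 ± 0.14, edgeR adjusted p = 0.0485) and PETE1 (-0.70 ± 0.14, edgeR adjusted p = 0.0332), where 0.215% of all genes tested were called. In 48 of the 49 genes this difference was below zero, with a median of -0.32. Over all genes tested it was below zero in 11186 of 21356, with a median of -0.01. With only the groups compared neither gene was called, and with RLE scaling PETE1 alone was. Both calls were lost when replicate 2 or 3 of wrky40 at 0 h, replicate 1 or 3 of wrky40 at 2 h, replicate 1 of WT at 0 h, or replicate 1 or 2 of WT at 2 h was left out, and PETE1 alone was called when replicate 2 of wrky40 at 2 h or replicate 3 of WT at 0 h was. For the change from 0 h to 1 h no gene was called (0.0937% of all genes tested were), 2 had an unadjusted p below 0.05, and DESeq2 called 0.

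Fewer of the genes were called between the double mutant and WT. At 2 h LHCB2.3 and PETE1 were lower in wrky18 wrky40 than in WT, where 14.2% of all genes tested were called, and the median of the 49 genes was -0.10. The count of 2 was 8 with scaling by library totals, 6 with only the groups compared and 4 with the replicate block. Over all genes tested, 2338 of 21356 were lower and 1001 higher by totals. With only the groups compared 1535 of 20127 were lower and 1891 higher, and with the block 1811 of 21356 were lower and 1874 higher. LHCB2.3 had 53.3, 59.0 and 68.7 CPM in wrky18 wrky40, against 113, 102 and 102 CPM in WT (-0.80 ± 0.16, edgeR adjusted p = 5.13e-04). PETE1 had 35.9, 35.2 and 35.9 CPM in wrky18 wrky40, against 49.5, 44.9 and 40.9 CPM in WT (-0.34 ± 0.10, edgeR adjusted p = 0.0269). Both had all 3 double mutant libraries below WT. LHCB4.3, a minor antenna gene of low level, stood at 0.44 ± 0.15 (edgeR adjusted p = 0.0513), and DESeq2 called it higher. LHCB2.3 held its call without each library in turn, whereas PETE1 lost its call when any double mutant library, or WT replicate 1 or 2, was left out. Of the 11 shoot and leaf markers, 6 were lower in the double mutant at 2 h, with a sum of 243 to 258 CPM, against 327 to 363 CPM in WT. At 0 h and 1 h no gene was called (2.56% and 5.79% of all genes tested were), 2 and 1 had an unadjusted p below 0.05, and DESeq2 called 0 at both times. The change from 0 h to 2 h did not differ from that of WT in any of the 49 by this test (1.95% of all genes tested were called), with 1 gene at an unadjusted p below 0.05 and 0 by DESeq2. All comparisons with WT share the WT libraries.

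A direct comparison of the double mutant with wrky40 was added after the values were seen. At 2 h the double mutant was higher in 45 of the 49 genes, with a median of 0.15, beside -0.008 over all genes tested. LHCB6 (AT1G15820), a minor antenna protein, was the only one called (3.26% of all genes tested were). It had 1071, 1166 and 1166 CPM in wrky18 wrky40, against 972, 782 and 798 CPM in wrky40, with the groups apart (0.42 ± 0.10, edgeR adjusted p = 0.0188). DESeq2 called 6. No gene was called when replicate 2 or 3 of either genotype was left out, and 3 were when replicate 1 of wrky40 was. At 0 h and 1 h none was called (1.52% and 0.112% of all genes tested were), 7 and 2 had an unadjusted p below 0.05, and DESeq2 called 2 and 0.

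The wrky18 single mutant had no called difference from WT among the 49 genes at 0 h, 1 h or 2 h, where 0.0234%, 0.117% and 0.103% of all genes tested were called. At an unadjusted p below 0.05 there were 0, 0 and 3 genes, and DESeq2 called 0 at each time. The median difference at 2 h was -0.02, with a range from -0.46 for LHCB1.4 to 0.30 for LHCB4.3. The differences in response were likewise not called (0% of all genes tested at 1 h and at 2 h), with 0 and 2 genes at an unadjusted p below 0.05 and 0 by DESeq2.

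Other nuclear genes for chloroplast proteins also fell, in a comparison where 35.1% of all genes tested were lower and 36.7% higher. Of 19 Calvin-Benson cycle genes, 16 fell and 3 rose in WT at 2 h, with a median of -0.62. PRK (AT1G32060), phosphoribulokinase, had 370, 453 and 389 CPM at 2 h, against 1112, 1121 and 1065 CPM at 0 h (-1.44 ± 0.08, edgeR adjusted p = 3.32e-16). Against this trend TKL2 (2.21), a transketolase isoform, and CP12-3 (2.08), of a family of small regulator proteins, rose. Of 25 genes of chlorophyll synthesis, 20 fell and 3 rose, with a median of -0.67. GUN4 (AT3G59400), an activator of magnesium chelatase, had 26.8, 18.9 and 21.6 CPM at 2 h, against 290, 278 and 256 CPM at 0 h (-3.61 ± 0.14, edgeR adjusted p = 7.04e-21). CAO, which makes chlorophyll b, fell by 2.97, whereas HEMA2, a glutamyl-tRNA reductase isoform, rose by 3.24. Of 28 other thylakoid genes, 27 fell and 1 rose, with a median of -0.69, among them LHCA6 (-1.85), a linker of photosystem I to the NDH complex, and the ATP synthase subunits ATPD (-1.48) and ATPC1 (-1.04). These medians lay below the -0.44 of the 49 genes, a difference that was not tested. In wrky40 at 2 h, 4 of the 28 were lower than in WT, LHCA6 (-0.40, edgeR adjusted p = 0.0252) and ATPD (-0.27, edgeR adjusted p = 0.0471) among them. Of all genes tested, 4.02% were called there in either direction.

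Of 15 tested regulators of photosynthesis genes, 13 were lower and 1 higher in WT at 2 h, with a median of -1.23. Over all genes tested, 35.1% were lower and 36.7% higher there. At 1 h all 15 were lower, with a median of -1.18, where 32% of all genes tested were lower. GLK1 and GLK2 encode the Golden2-like factors that activate antenna and chlorophyll synthesis genes. GLK2 (AT5G44190) had 28.5, 24.1 and 23.4 CPM in WT at 2 h, against 148, 139 and 113 CPM at 0 h (-2.40 ± 0.13, edgeR adjusted p = 4.37e-17). GLK1 (AT2G20570) had 69.9, 56.1 and 55.0 CPM at 2 h, against 108, 85.4 and 57.4 CPM at 0 h, with overlapping groups (-0.47 ± 0.16, edgeR adjusted p = 0.009). The sigma factors of the chloroplast RNA polymerase SIG1 (-2.54), SIG5 (-2.1) and SIG6 (-1.66) fell. At 2 h GLK1 (-0.81) and GLK2 (-0.91) were lower in wrky18 wrky40 than in WT, and they were already lower at 0 h (-1.01 and -0.65). The antenna genes named above were not called between these genotypes at 0 h. Any relation between the levels of these factors and of the antenna genes was not tested. SIG6 was lower in wrky40 than in WT at 2 h (-0.44 ± 0.09, edgeR adjusted p = 0.00296), and GLK1 (-0.51) and GLK2 (-0.37) were not called there (edgeR adjusted p = 0.0648 and 0.107).

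A seedling holds roots and shoots, and in these bulk samples fewer cells of a type and less RNA per cell cannot be told apart. Of 11 shoot and leaf markers, 7 were lower and 2 higher in WT at 2 h, beside 35.1% lower and 36.7% higher of all genes tested, with a median of -0.49, and their summed level was 327 to 363 CPM at 2 h, against 427 to 485 CPM at 0 h. Of 19 root markers, 4 were lower and 6 higher, both smaller shares than over all genes tested, with a median of 0.06 and a sum of 209 to 217 CPM at 2 h, against 185 to 205 CPM at 0 h. The root sum at 2 h was 213 to 233 CPM in wrky18 wrky40, 224 to 261 CPM in wrky40 and 202 to 220 CPM in wrky18, against 209 to 217 CPM in WT. The shoot and leaf sum was 297 to 342 CPM in wrky18. In wrky40 at 2 h, 1 shoot and leaf marker was lower than in WT and 1 root marker higher, with medians of -0.09 and 0.02. Of all genes tested, 4.02% were called there in either direction. No marker of either list was at 0 in every library of a group. The part of these shifts in the fall of the 49 genes was not tested.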

How the data were processed

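RNA sequencing counts of 36 libraries, 3 biological replicates in each of 12 groups of genotype and time, were used. The deposited table holds raw read counts per gene, and the submitters' processing notes name FastQC 0.11.2, TopHat2 2.0.10, HTSeq and the TAIR10 build. The labels' protocol names a stranded library kit, and the strand setting of the counting is not given in the sources used here. No pair of libraries was identical.

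Counts were tested with edgeR 4.0.16 in R 4.3.3 (filterByExpr, TMM, glmQLFit with 1 mean per group and 24 residual degrees of freedom, glmQLFTest). Of 32678 genes, 21356 were tested, with Benjamini-Hochberg adjustment over all of them within each of 27 comparisons and 3 added later. The common biological coefficient of variation was 10.71%. The 49 genes and the other lists were chosen with earlier results of these data known. The genes described library by library are, per subgroup, the 2 with the largest fall and the 1 with the largest rise or smallest change in WT at 2 h, the 5 with the smallest adjusted p among those called between genotypes, and GLK1, GLK2, WRKY18 and WRKY40. Of each other list the 3 with the smallest adjusted p were named. Other genes were named after their values were seen.

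Names, coordinates and sequences are from RefSeq TAIR10.1, which matched 31912 of the genes. With simulated counts of WT at 2 h against 0 h over 20624 genes, 99% of genes changed 2-fold were called, and 8 of 183 calls were false. The simulation changed only a small set of well-counted genes, and all else kept the means of untreated WT. In the real comparison 35.1% of genes tested were lower and 36.7% higher, so these rates may not hold there. Depth was 17287229 to 38709715 counts per library, and counting error was not compared with the spread between libraries.

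The same replicate number in different groups is not tied to a shared day or batch by the labels. In 10 of 24 comparisons, WT at 2 h against 0 h among them, every same-numbered pair deviated together (correlation over 0.1), over a range of -0.0187 to 0.383 in all comparisons. The main tests used no pairing in these 10 or in any other comparison. Pairing entered only through the alternative with the replicate number as a block. Alternatives were DESeq2 1.42.0, RLE scaling, scaling by library totals, no filter on low counts, only the groups compared, the replicate number as a block, family copies summed or left out, and each library left out in turn.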

Additional observations from a re-analysis of the deposited data

Results flagged for a closer look

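The change from 0 h to 2 h differed between genotypes by the interaction test in 2 of the 49 genes. For PSAD-2 it was -0.62 ± 0.14 in wrky40 minus WT (log2, edgeR adjusted p = 0.0485), where the gene had 119 to 121 CPM at 2 h and 595 to 785 CPM at 0 h in wrky40, and 146 to 172 CPM at 2 h and 568 to 662 CPM at 0 h in WT. For PETE1 it was -0.70 ± 0.14 (edgeR adjusted p = 0.0332), with 28.6 to 32.7 CPM at 2 h and 102 to 128 CPM at 0 h in wrky40, and 40.9 to 49.5 CPM at 2 h and 101 to 114 CPM at 0 h in WT. At 0 h the highest wrky40 library stood above the highest WT library in both genes. Neither gene was called with only the groups compared, and with RLE scaling PETE1 alone was. Both calls were lost in 7 of the 12 fits that left out a library.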

How the results depend on the processing

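Of 410 changes of single genes called over all comparisons, 4932 values under the alternatives comprised 4638 with the same direction and call, 291 that lost the call, and 3 of opposite sign: PSAK (-0.02), PSAO (-0.03) and PSBQ-2 (-0.06) in wrky18 wrky40 at 1 h, scaled by library totals. That scaling gave 40 genes lower and 0 higher in wrky18 wrky40 at 1 h against 0 h, 44 lower in wrky40, 40 in wrky18 and 43 in WT. Of all 21356 genes tested, it called 11532 lower in wrky18 wrky40, 10711 in wrky40, 11216 in wrky18 and 11029 in WT at 1 h. It also gave 8 calls for wrky18 wrky40 and 18 for wrky40 against WT at 2 h, and 1 for wrky18 wrky40 against wrky40 at 0 h. Over all genes tested, the calls in that order were 2338 lower and 1001 higher, 469 lower and 517 higher, and 169 lower and 152 higher. At 1 h against 0 h, 1 gene was higher in wrky18 by RLE scaling and by DESeq2, and 1 in WT with only the groups compared. With only the groups compared, there were 6 calls for wrky18 wrky40 against WT and 3 against wrky40 at 2 h, and 0 for the change to 2 h in wrky40 minus WT, where RLE scaling gave 1. DESeq2 called 2 genes at 0 h and 6 at 2 h for wrky18 wrky40 against wrky40. The cause of these shifts was not tested. The replicate block gave 17 calls for wrky40 against WT at 2 h and 4 for wrky18 wrky40 against WT at 2 h. Over all genes tested, it called 578 lower and 834 higher in the first and 1811 lower and 1874 higher in the second. Among the 49 genes it gave 2 at 0 h and 4 at 2 h for wrky18 wrky40 against wrky40. Over all genes tested, these were 300 lower and 222 higher at 0 h and 648 lower and 499 higher at 2 h. In none of these comparisons was every same-numbered pair correlated over 0.1. For wrky18 wrky40 at 2 h against WT and against wrky40, all 6 libraries nonetheless correlated best with their own number. Where every pair was over 0.1, the block changed no direction and added calls for PSAE-1 and PSBW (2 h against 0 h in wrky18 and in wrky18 wrky40), PSAK, PSBR and PSAH-1 (2 h against 1 h in wrky18), and LHCA3 (1 h against 0 h in wrky40), beside the 4 given for WT.

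Leaving out a library gave, at 1 h against 0 h, 8 to 17 genes lower and 1 to 9 higher in wrky18 wrky40, 0 to 1 higher in wrky40, 0 to 3 higher in wrky18, and 8 to 15 lower and 0 to 1 higher in WT. It gave 29 to 39 lower in WT at 2 h. Against WT the ranges were 0 to 1 at 1 h and 1 to 3 at 2 h for wrky18 wrky40, and 0 to 1 at 1 h and 3 to 9 at 2 h for wrky40. They were 0 to 2 for the change to 2 h in wrky40 minus WT, and 0 to 3 at 0 h and at 2 h for wrky18 wrky40 against wrky40. The rise in wrky18 came without its 1 h replicate 3, that in wrky40 without its 1 h replicate 3, and that in WT without its 1 h replicate 2. The call for wrky18 wrky40 against WT at 1 h came without its replicate 2, and the 3 against wrky40 at 0 h without wrky40 replicate 1. Reads shared by close copies limit the certainty of the values of single RBCS, LHCB1 and LHCB2 genes. Scoring only genes without a copy of at least 90% protein identity moved the WT median at 2 h to -0.34, and with the copies of each family summed 69.7% of features were lower, against 71.4% of the 49 genes.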

Other observations

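Genes of photorespiration, the pathway that recycles the product of Rubisco's reaction with oxygen, also fell in WT at 2 h. Of 13 genes, 11 were lower and 1 higher than at 0 h, beside 35.1% lower and 36.7% higher of all genes tested, with a median of -0.61. CAT2 (-1.58), the main leaf catalase, GLDP2 (-1.28), a subunit of glycine decarboxylase, and GOX2 (-0.99), a glycolate oxidase, were among them.

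Genes of the circadian clock moved both ways. Of 11, 3 were lower and 7 higher in WT at 2 h than at 0 h, with a median of 0.62. Over all genes tested, 35.1% were lower, a larger share than these 3, and 36.7% were higher. LHY, a morning-phased repressor, fell by 1.99 on the log2 scale, whereas LUX (2.70), part of the evening complex, and TOC1 (2.08), an evening-phased repressor, rose. The untreated seedlings were not resampled at these hours, so the hour of sampling and the treatment cannot be told apart here either.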
